A study of Mus musculus with 12 samples.

Results

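The genes described here encode ligands and receptors of axon guidance: ephrins and their Eph receptors, semaphorins with plexins and neuropilins, Slits with Robo receptors, and netrins with Unc5 and Dcc receptors. They were listed by name as 60 genes of 12 families, with earlier results of these data known. Of these, 59 had an array probe set with a single gene symbol among 22180 genes measured, and Ephb2 had none. Other measured genes of these families, among them Epha6, Epha8, Epha10, Sema4f, Sema4g, Plxnb3, Robo3 and Ntn3, were counted in a further list below. Counts per family cover the 60 listed genes only. Levels were compared among 4 fibroblast populations sorted from the dermis of mouse back skin at postnatal day 2, each on 3 whole-transcript Affymetrix arrays labelled as biological replicates, 12 arrays in all. The populations were papillary fibroblasts (labelled CD26+ and, in the study's description, sorted as CD26+Sca1-), reticular fibroblasts (Dlk1+Sca1-) and 2 pre-adipocyte populations (Dlk1+Sca1+ and Dlk1-Sca1+). No population was treated. The labels give the genotype as wild-type, whereas the study describes PdgfraH2BeGFP reporter mice, in which nuclear green fluorescence is driven from Pdgfra, a receptor gene of fibroblasts, and the fluorescent cells were sorted. On that description all 4 populations carry the reporter, and cells without Pdgfra activity lay outside every gate. The sources used here do not say how many mice went into each sample.

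Guidance molecules are surface or secreted proteins that attract or repel growing axons, and the same proteins position other cells, including those of vessels and skin. Ephrins are bound to the membrane and signal on cell contact to Eph receptor tyrosine kinases, and the ephrin-bearing cell can itself receive a signal. Semaphorins bind plexins, the secreted class with neuropilins as co-receptors, Slits bind Robo receptors, and netrins bind Dcc and Unc5 receptors. In skin these families are known for guiding sensory nerves and vessels and for borders between groups of cells.

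The arrays were alike in scale, with medians from 5.38 to 5.51 on the log2 scale and correlations of 0.958 to 0.983 between any pair. Over values centred per gene, 9 of the 12 arrays correlated best with their own population, and no Dlk1-Sca1+ array did. Replicates 1 and 2 of Dlk1-Sca1+ correlated best with CD26+. Their mean r with their own group was -0.012 and -0.009, and each of these means includes replicate 3. These means therefore do not show how far replicates 1 and 2 resemble each other. Replicate 3 correlated best with Dlk1+Sca1+. Replicate 3 was taken to be the array that the study set aside, because it held the highest Dlk1 of its group (8.69 against 8.09 and 8.32) and resembled Dlk1+Sca1+ more than its own group (mean r of 0.061 and -0.069 over values centred per gene). The comparisons therefore rest on 11 arrays, with Dlk1-Sca1+ represented by 2 of them, and each call with Dlk1-Sca1+ is also given with all 12. Fibroblast markers, 9 measured genes such as Pdgfra and Col1a1, were high on every array kept (mean log2 level 10.85 to 11.35). Leukocyte markers (15 measured) were higher in Dlk1+Sca1+, where the mean of the list was 5.56 to 5.66 per array against 4.81 to 5.02 on the other arrays kept. Of these markers 5 were called higher in Dlk1+Sca1+ than in CD26+, where 1.68% of all genes were, led by Pf4. All 15 read higher in Dlk1+Sca1+ than in CD26+ and than in Dlk1+Sca1-, and 13 read higher than in Dlk1-Sca1+. Ptprc, which defines leukocytes, lay between 3.07 and 3.57, with its highest mean also in Dlk1+Sca1+ (3.35). Endothelial markers (15 measured) averaged 5.03 to 5.45 per array, and of these the angiopoietin receptor gene Tek was called higher in Dlk1+Sca1+ than in CD26+ and Dlk1+Sca1-, while Sox18 was called lower in CD26+ and Dlk1+Sca1+ than in Dlk1+Sca1-. Keratinocyte markers (11 measured) averaged 5.11 to 6.24 in CD26+ and 5.15 to 5.61 elsewhere, with 0 called. Within CD26+ they were uneven, most so Krt15 (5.12, 6.64 and 8.28, SD 1.58) and Krt14 (5.57, 6.49 and 8.33, SD 1.41). Such a spread limits what the test can call. Pericyte and smooth muscle markers (12 measured) averaged 6.45 to 7.11 per array. Of these Kcnj8 was called lower and Des higher in CD26+ than in Dlk1+Sca1+, Mcam was called higher in reticular cells than in Dlk1+Sca1+, and Abcc9 was called lower in Dlk1-Sca1+ cells than in Dlk1+Sca1+ cells. The part of such cells in the results was not tested. In RNA from sorted pools, fewer cells that express a gene and less RNA per cell cannot be told apart.

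Of the 59 guidance genes, 11 differed between at least 1 pair of populations, which is 18.6% of them against 4.73% of all genes tested (limma, adjusted p at or under 0.05 within a comparison). Because the list was chosen with earlier results of these data known, these shares describe the list and do not test the families. The called genes are named here. The 11 were 2 ephrins (Efna5 and Efnb2), 1 Eph receptor (Epha3), 2 semaphorins (Sema3c and Sema6d), 3 plexins (Plxna4, Plxnc1 and Plxnd1), 2 Robo receptors (Robo1 and Robo2) and the netrin receptor Unc5b. No EphB receptor (4 measured), neuropilin (2), Slit (3) or netrin (2) was called. With so few genes per family and 4.73% of all genes called, the lack of a call does not set these families apart. A single test for any difference among the 4 populations called 9 of them (15.3%, against 3.23% of all genes), leaving out Plxnc1 and Plxnd1. Of 354 gene and comparison pairs 30 were called, and the shares of all genes called are given per comparison below. In each of the 30, every array of one population lay above every array of the other. With 2 or 3 arrays per population, passing the threshold already favours such separation. It was not counted over all genes and is no separate support for the calls.

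Most calls set papillary cells against the Dlk1+ populations. Between CD26+ and Dlk1+Sca1+, 11 genes were called, 18.6% of them against 3.72% of all genes. Of these 8 read higher in CD26+ (2.05% of all genes did) and 3 read lower (1.68%). Between CD26+ and Dlk1+Sca1- 6 were called, 10.2% against 1.1% of all genes, with 5 higher in CD26+ (0.654%) and 1 lower (0.442%). The pre-adipocyte populations differed from each other in 6 genes, 10.2% against 1.19%, of which 4 were higher in Dlk1-Sca1+ (0.649%) and 2 lower (0.537%). Dlk1+Sca1+ differed from Dlk1+Sca1- in 4 genes, 6.78% against 1.24%, with 1 higher (0.649%) and 3 lower (0.586%). Dlk1-Sca1+ differed from Dlk1+Sca1- in 3 genes, 5.08% against 0.591%, with 1 higher (0.343%) and 2 lower (0.248%). Between CD26+ and Dlk1-Sca1+ 0 were called, where 0.0857% of all genes were, 0.00902% as higher and 0.0766% as lower in CD26+. These comparisons share arrays, so their calls are not independent of each other.

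Adding the array left out lowered most counts. With all 12 arrays 9 guidance genes were called between CD26+ and Dlk1+Sca1+ (3.11% of all genes), 3 between CD26+ and Dlk1+Sca1- (0.618%) and 3 between Dlk1+Sca1+ and Dlk1+Sca1- (0.902%). Dlk1-Sca1+ then differed in 1 gene each from Dlk1+Sca1- (0.451%) and from Dlk1+Sca1+ (0.397%) and in 0 from CD26+ (0.131%), and the test for any difference called 8 (2.52%).

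**Figure D1:**
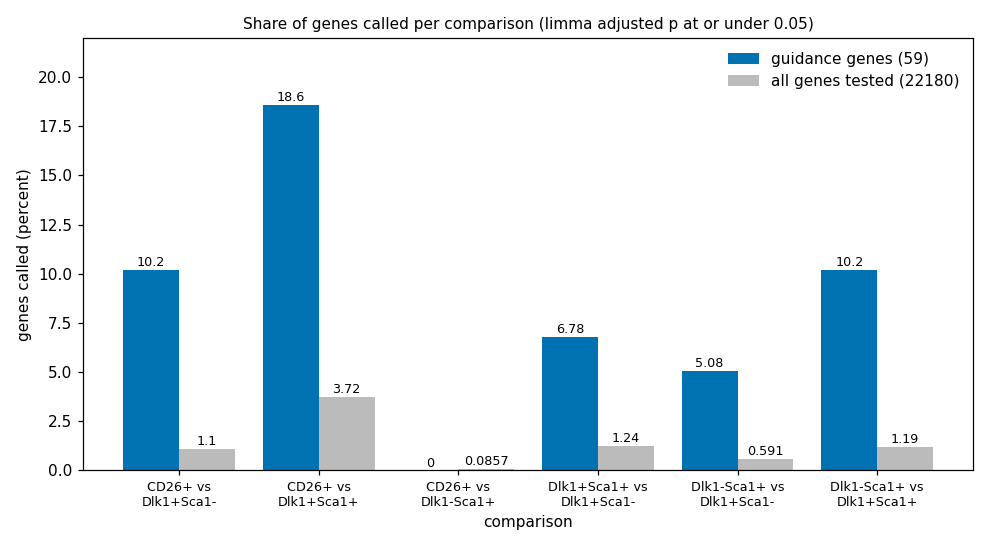
Bars give the percent of genes called in each of the 6 comparisons, for the 59 guidance genes and for all 22180 genes tested; the vertical axis starts at 0. The guidance genes had the higher share in 5 comparisons and none called in CD26+ against Dlk1-Sca1+. They were listed with earlier results of these data known.

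Over all 59 genes, higher and lower values were about even. The median difference of the 59 genes lay between -0.04 and 0.09 in the 6 comparisons, against -0.01 to 0.01 over all genes. Their median absolute difference was 0.23 to 0.31 in the comparisons in which any was called and 0.14 between CD26+ and Dlk1-Sca1+, against 0.16 to 0.20 and 0.15 over all genes.

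**Figure D2:**
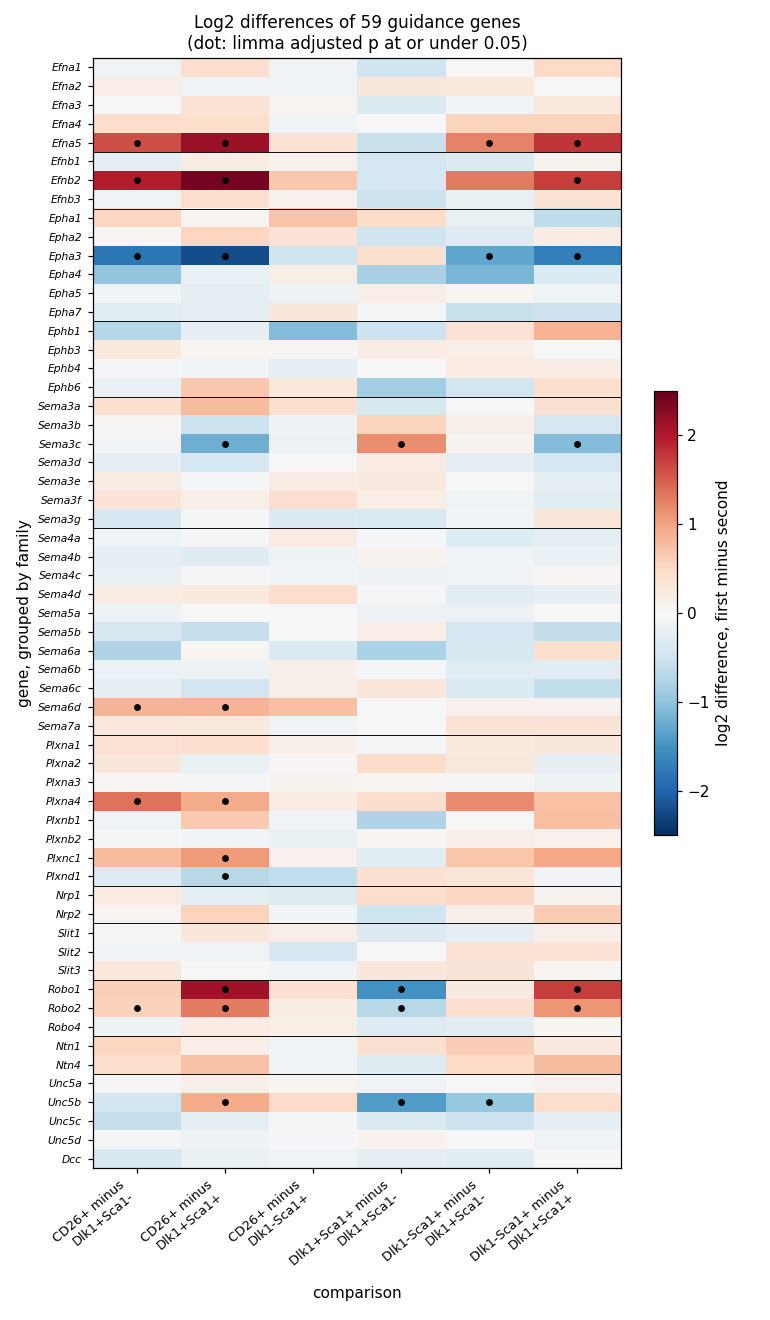
Each row is 1 of the 59 guidance genes, ordered and ruled off by family, and each column 1 comparison; colour gives the log2 difference of the first population minus the second, and dots mark an adjusted p at or under 0.05. The dots lie in 11 rows, with 4 each for Efna5, Epha3 and Robo2 and the paler rows between them uncalled.

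Efna5 and Efnb2 were the ephrins that differed, and both were high in CD26+ and Dlk1-Sca1+ cells and low in both Dlk1+ populations. Their receptor family showed the opposite order in 1 gene, Epha3. The promoters of these 3 genes are printed to show what lies at their start sites. They are the RefSeq entries (GRCm38.p6), from 250 bases before the annotated start and 50 bases from it on, and lie at chr8:8661193-8661492, chr17:62881268-62881567 and chr16:63864126-63864425, all on the minus strand. Capitals mark matches on either strand to GGGCGG, the GC box. They also mark CCAAT and the TATA box, searched for as TATAAA. The core bound by TCF and LEF factors was searched for as CTTTGA and, with the last base changed, as CTTTGT.
Efnb2: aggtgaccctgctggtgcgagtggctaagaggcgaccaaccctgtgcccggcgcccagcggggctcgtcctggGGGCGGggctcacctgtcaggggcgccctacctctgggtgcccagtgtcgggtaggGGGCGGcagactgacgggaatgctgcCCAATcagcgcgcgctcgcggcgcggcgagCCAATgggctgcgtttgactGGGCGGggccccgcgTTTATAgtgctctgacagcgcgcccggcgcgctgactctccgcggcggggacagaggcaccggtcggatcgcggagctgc
Efna5: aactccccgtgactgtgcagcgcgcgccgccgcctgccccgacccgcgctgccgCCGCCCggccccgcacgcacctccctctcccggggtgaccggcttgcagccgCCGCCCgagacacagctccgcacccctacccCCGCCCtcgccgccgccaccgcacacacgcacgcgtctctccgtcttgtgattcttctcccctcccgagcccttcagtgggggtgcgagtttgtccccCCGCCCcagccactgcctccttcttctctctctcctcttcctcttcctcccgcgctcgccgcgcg
Epha3: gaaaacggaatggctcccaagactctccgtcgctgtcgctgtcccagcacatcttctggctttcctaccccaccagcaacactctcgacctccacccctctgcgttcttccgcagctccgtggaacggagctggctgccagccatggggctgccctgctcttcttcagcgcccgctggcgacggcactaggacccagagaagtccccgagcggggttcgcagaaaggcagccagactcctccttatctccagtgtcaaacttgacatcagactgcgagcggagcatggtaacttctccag
The Efnb2 promoter held 3 GC boxes, 2 CCAAT matches and 1 TATAAA match and was 72.3% G and C, above 93.5% of the 32851 mouse promoters of this length. The Efna5 promoter held 4 GC boxes and was 73.3% G and C, above 94.5% of them. The Epha3 promoter held none of the motifs and was 60.7% G and C, above 72.2%. Over all those promoters, 35.7% held a GC box, 37.4% a CCAAT match, 13.6% a TATAAA match and 31.2% a TCF/LEF core, so a match here is a description of the sequence and not a site.

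Efnb2 (chr8:8617235-8661242) encodes ephrin-B2, a transmembrane ligand best known from arteries. Its log2 levels were 9.78, 10.20 and 9.68 in CD26+, 7.86, 8.38 and 7.53 in Dlk1+Sca1-, 7.46, 7.95 and 7.05 in Dlk1+Sca1+ and 8.90 and 9.54 in Dlk1-Sca1+. Every CD26+ array lay above every other array, the Dlk1-Sca1+ arrays lay between, and the Dlk1+ populations overlapped each other. Efnb2 was 5.29-fold higher in CD26+ than in Dlk1+Sca1+ (log2 difference 2.40 ± 0.27, SE, adjusted p = 2.24e-04) and 3.89-fold higher than in Dlk1+Sca1- (adjusted p = 0.00399). It was also 3.33-fold higher in Dlk1-Sca1+ cells than in Dlk1+Sca1+ cells (1.74 ± 0.30, adjusted p = 0.0149), a call that was lost with all 12 arrays (1.27 ± 0.37, adjusted p = 0.217), in which the array left out read 7.83. Leaving out replicate 1 of Dlk1+Sca1+ or replicate 2 of Dlk1-Sca1+ ended it too, with adjusted p-values up to 0.173. Against Dlk1+Sca1-, Dlk1-Sca1+ cells read 1.29 ± 0.30 higher without passing the test (adjusted p = 0.0859).

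Efna5 (chr17:62602957-62881317) encodes ephrin-A5, a ligand held in the membrane by a lipid anchor. Its levels were 10.07, 10.01 and 9.50 in CD26+ and 9.29 and 9.69 in Dlk1-Sca1+, against 8.51, 8.00 and 8.22 in Dlk1+Sca1- and 8.16, 7.53 and 7.39 in Dlk1+Sca1+. The arrays of CD26+ and Dlk1-Sca1+ overlapped each other and lay above all arrays of both Dlk1+ populations. Efna5 was 4.47-fold higher in CD26+ than in Dlk1+Sca1+ (2.16 ± 0.22, adjusted p = 1.17e-04) and 3.06-fold higher than in Dlk1+Sca1- (1.61 ± 0.22, adjusted p = 0.00399, and 0.0659 with all 12 arrays). In Dlk1-Sca1+ it was 3.47-fold higher than in Dlk1+Sca1+ (1.79 ± 0.25, adjusted p = 0.00361) and 2.37-fold higher than in Dlk1+Sca1- (1.25 ± 0.25, adjusted p = 0.0447). Both of these calls rested on the choice of arrays. The array left out read 8.04, and with all 12 arrays the adjusted p-values were 0.163 and 0.432. The first was also lost without replicate 2 of Dlk1-Sca1+ (adjusted p = 0.0617), and the second held in 3 of the 11 fits that each left out 1 array, those without replicate 1 or 3 of Dlk1+Sca1+ or replicate 3 of CD26+.

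The other ephrins varied little. Efna1, Efna2, Efna3 and Efna4 had population means within 0.27 to 0.55 of each other, and Efnb1 and Efnb3 within 0.43 to 0.52, on the log2 scale, and none was called. Efnb1 overlapped across all populations, with 8.04, 7.65 and 7.57 in CD26+ and 8.02, 8.49 and 7.44 in Dlk1+Sca1-.

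Epha3 (chr16:63543532-63864175) encodes a receptor for which ephrin-A5 is a high-affinity ligand. Its levels were 8.14, 8.08 and 7.32 in Dlk1+Sca1- and 8.35, 8.17 and 8.21 in Dlk1+Sca1+, against 5.84, 6.29 and 5.98 in CD26+ and 6.65 and 6.44 in Dlk1-Sca1+. All arrays of the Dlk1+ populations lay above all those of CD26+ and Dlk1-Sca1+, the reverse of Efna5. Epha3 was 4.62-fold lower in CD26+ than in Dlk1+Sca1+ (-2.21 ± 0.22, adjusted p = 7.21e-05) and 3.51-fold lower than in Dlk1+Sca1- (-1.81 ± 0.22, adjusted p = 0.00150), and both calls held in every alternative tried. In Dlk1-Sca1+ it was 3.25-fold lower than in Dlk1+Sca1+ (-1.70 ± 0.24, adjusted p = 0.00391) and 2.47-fold lower than in Dlk1+Sca1- (-1.31 ± 0.24, adjusted p = 0.0326). The array left out read 8.11, as high as the Dlk1+ arrays, and with all 12 arrays these adjusted p-values were 0.228 and 0.421. Without replicate 2 of Dlk1-Sca1+ the first was 0.0592, and the second was past 0.05 in 6 of the 11 fits that left out 1 array (without replicate 1 or 2 of Dlk1+Sca1-, either array of Dlk1-Sca1+, or replicate 1 or 3 of CD26+, up to 0.244). The pericyte marker Kcnj8 also read higher in Dlk1+Sca1+ (7.61, 7.89 and 7.26) than in CD26+ (5.68, 6.59 and 5.63) and Dlk1-Sca1+ (5.73 and 6.20, with the array left out at 7.13). Abcc9, which encodes a partner of the Kcnj8 channel, read 6.92, 6.88 and 7.33 in Dlk1+Sca1+, 5.62, 6.48 and 5.97 in CD26+ and 5.68 and 5.36 in Dlk1-Sca1+, with the array left out at 6.07. In Dlk1+Sca1-, where Epha3 was also high, Kcnj8 read 6.05, 7.64 and 6.49 and Abcc9 6.61, 7.41 and 6.14, both overlapping CD26+. Of the 12 markers of that list 7 read higher and 5 lower in CD26+ than in Dlk1+Sca1+, and the part of such cells was not tested.

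Of the 9 other listed Eph receptors that were measured, 0 were called. Epha4, which binds ephrins of both classes, had the widest spread of population means among all uncalled guidance genes (1.15). It read 7.12, 8.20 and 7.34 in Dlk1+Sca1- and 6.30, 6.95 and 6.47 in CD26+, without overlap, but missed the threshold (-0.98 ± 0.26 for CD26+ minus Dlk1+Sca1-, adjusted p = 0.109), with 1 Dlk1+Sca1- array well above the others. Ephb4, the receptor best known for binding ephrin-B2, had population means within 0.24 of each other. Ephb6, whose kinase domain is inactive, read 5.62, 5.60 and 5.14 in Dlk1+Sca1+ and 6.05, 6.43 and 6.49 in Dlk1+Sca1- (-0.87 ± 0.21, adjusted p = 0.0622). Ephb1 had a spread of 1.08 but lay among the 40% of genes with the dimmest signal, as did Epha5.

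**Figure D3:**
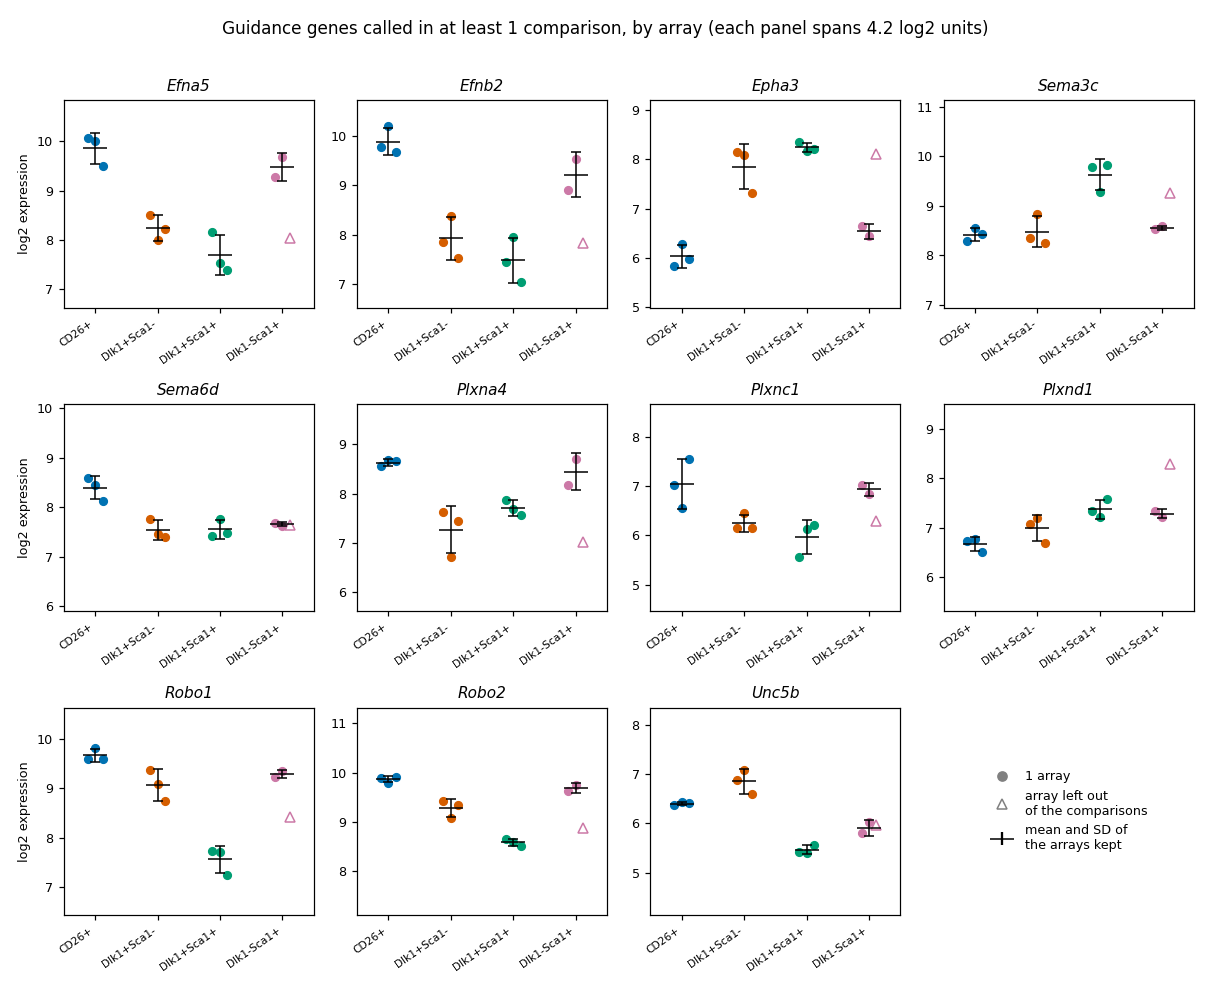
Panels show the 11 guidance genes called in at least 1 comparison, with the log2 level on each array (filled points), the mean and SD of the arrays kept (bars), and the Dlk1-Sca1+ array left out of the comparisons (open triangle). Efna5 and Efnb2 are high in CD26+ and Dlk1-Sca1+, Epha3 is high in the Dlk1+ populations, and Robo1 and Robo2 are lowest in Dlk1+Sca1+.

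Sema3c and Sema6d were the only semaphorins called among the 18 listed, and they marked different populations. Sema3c, a secreted semaphorin that signals through neuropilins with plexins, was highest in Dlk1+Sca1+. Sema6d, a transmembrane semaphorin that binds plexin-A1, was highest in CD26+. The Sema3c promoter (chr5:17574566-17574865, plus strand, GRCm38.p6) is printed for comparison with those above, with the same motifs in capitals.
Sema3c: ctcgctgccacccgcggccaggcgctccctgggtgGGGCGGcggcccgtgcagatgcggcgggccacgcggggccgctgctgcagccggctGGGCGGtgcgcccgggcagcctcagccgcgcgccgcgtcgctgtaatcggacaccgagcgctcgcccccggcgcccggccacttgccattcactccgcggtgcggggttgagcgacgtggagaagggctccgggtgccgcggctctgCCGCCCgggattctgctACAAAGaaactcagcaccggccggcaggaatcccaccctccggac
It held 3 GC boxes and 1 TCF/LEF core and was 75.7% G and C, above 96.7% of mouse promoters.

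Sema3c (chr5:17574816-17730268) read 9.78, 9.27 and 9.83 in Dlk1+Sca1+, against 8.28, 8.55 and 8.43 in CD26+, 8.35, 8.84 and 8.24 in Dlk1+Sca1- and 8.53 and 8.58 in Dlk1-Sca1+. Every Dlk1+Sca1+ array lay above every other array kept, and the other populations overlapped. Sema3c was 2.32-fold higher in Dlk1+Sca1+ than in CD26+ (-1.21 ± 0.18 for CD26+ minus Dlk1+Sca1+, adjusted p = 0.00212), 2.22-fold higher than in Dlk1+Sca1- (1.15 ± 0.18, adjusted p = 0.00836) and 2.11-fold higher than in Dlk1-Sca1+ (-1.07 ± 0.21 for Dlk1-Sca1+ minus Dlk1+Sca1+, adjusted p = 0.0237). It was thus 1 of the 2 guidance genes that set a population apart, meaning a log2 difference of at least 1 and an adjusted p at or under 0.05 against all 3 others in the same direction, which 0.275% of all genes did (0.0812% as higher in Dlk1+Sca1+). The array left out read 9.25, just below the lowest Dlk1+Sca1+ array, and with all 12 arrays the last comparison was lost (-0.84 ± 0.22, adjusted p = 0.140). That comparison was also lost without replicate 1 or 3 of Dlk1+Sca1+ or either array of Dlk1-Sca1+ (up to 0.158), and the one with Dlk1+Sca1- without its replicate 1 (just past the threshold). Leukocyte markers were higher in the same population, as given above.

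Sema6d (chr2:124089943-124667789) read 8.59, 8.46 and 8.13 in CD26+, 7.76, 7.46 and 7.39 in Dlk1+Sca1-, 7.41, 7.76 and 7.48 in Dlk1+Sca1+ and 7.68 and 7.62 in Dlk1-Sca1+. The CD26+ arrays lay above all others, which were close together. The gene was 1.81-fold higher in CD26+ than in Dlk1+Sca1- (0.85 ± 0.17, adjusted p = 0.0291) and 1.80-fold higher than in Dlk1+Sca1+ (0.85 ± 0.17, adjusted p = 0.0131). Each call held in 7 of the 11 fits that left out 1 array. The first was lost without replicate 1 or 2 of CD26+ or replicate 2 or 3 of Dlk1+Sca1- (up to 0.172), and the second without replicate 1 or 2 of CD26+ or replicate 1 or 3 of Dlk1+Sca1+ (up to 0.0790). Against Dlk1-Sca1+ the difference was of similar size but did not pass (0.74 ± 0.19, adjusted p = 0.416).

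The remaining semaphorins had population means within 0.14 to 0.80 of each other. Sema6a read 8.74, 8.46 and 7.86 in Dlk1+Sca1- and 7.43, 7.82 and 7.54 in CD26+ (-0.75 ± 0.21, adjusted p = 0.128). Sema3a, the classic repellent of sensory axons, read 6.70, 6.91 and 6.70 in CD26+ and 6.33, 5.87 and 5.71 in Dlk1+Sca1+ without overlap (0.79 ± 0.22, adjusted p = 0.0725). Neither passed the test.

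Among the receptors of semaphorins, 3 of the 8 listed plexins were called and both neuropilins were not. Plxna4 and Plxnc1 were called higher in CD26+ and Plxnd1 lower, and no plexin was called in a comparison with Dlk1-Sca1+. Plexin-A4 pairs with neuropilins to read secreted semaphorins, plexin-C1 is the receptor of Sema7a, and plexin-D1 binds Sema3e and, with neuropilins, Sema3c.

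Plxna4 (chr6:32144543-32588192) read 8.55, 8.68 and 8.66 in CD26+ and 8.17 and 8.70 in Dlk1-Sca1+, against 7.62, 6.72 and 7.45 in Dlk1+Sca1- and 7.88, 7.69 and 7.56 in Dlk1+Sca1+. It was 2.58-fold higher in CD26+ than in Dlk1+Sca1- (1.37 ± 0.22, adjusted p = 0.00971) and 1.89-fold higher than in Dlk1+Sca1+ (0.92 ± 0.22, adjusted p = 0.0350). CD26+ did not overlap either Dlk1+ population. The first call was lost without replicate 1 of CD26+ (0.0530), and the second without any 1 array of either population compared (up to 0.126). With all 12 arrays, which add a Dlk1-Sca1+ array at 7.01, neither passed (0.107 and 0.203). The difference of Dlk1-Sca1+ from Dlk1+Sca1- missed the threshold (1.18 ± 0.25, adjusted p = 0.0542, and 0.460 with all 12 arrays).

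Plxnc1 (chr10:94790866-94945015) read 7.03, 6.55 and 7.55 in CD26+ and 5.57, 6.14 and 6.20 in Dlk1+Sca1+, a 2.10-fold difference (1.07 ± 0.25, adjusted p = 0.0301) that was lost without replicate 1 or 3 of CD26+ or replicate 1 or 2 of Dlk1+Sca1+ (up to 0.120). Its levels were 6.14, 6.45 and 6.14 in Dlk1+Sca1- and 7.02 and 6.84 in Dlk1-Sca1+, which did not pass the test against either Dlk1+ population (adjusted p = 0.334 against Dlk1+Sca1-). Plxnd1 (chr6:115954811-115995339) read 6.73, 6.78 and 6.51 in CD26+ and 7.33, 7.21 and 7.58 in Dlk1+Sca1+, 1.62-fold lower in CD26+ (-0.70 ± 0.18, adjusted p = 0.0480). This was the call nearest the threshold, and it held in 2 of the 11 fits that left out 1 array, those without replicate 2 or 3 of Dlk1+Sca1-, while the others gave up to 0.182 and all 12 arrays 0.181. Plxnd1 is also an endothelial gene, and Tek read 6.53, 6.30 and 7.36 in Dlk1+Sca1+ and 4.21, 4.88 and 4.76 in CD26+. The 15 endothelial markers were split, with 7 higher and 8 lower in CD26+ than in Dlk1+Sca1+ (median difference -0.07), and Cdh5 and Sox18 were among those that read higher in CD26+. The part of endothelial cells was not tested.

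The uncalled plexins included Plxnb1, a receptor of Sema4d, which came closest to the threshold. Its levels were 4.77, 4.86 and 4.75 in Dlk1+Sca1+, below all arrays of CD26+ (5.41, 5.56 and 5.38), of Dlk1+Sca1- (5.17, 5.65 and 5.79) and of Dlk1-Sca1+ (5.61 and 5.48). The adjusted p was 0.0503 against CD26+ (0.66 ± 0.17) and 0.0540 against Dlk1+Sca1- (-0.75 ± 0.17 for Dlk1+Sca1+ minus Dlk1+Sca1-). Nrp1 and Nrp2, the co-receptors of secreted semaphorins, had population means within 0.51 and 0.63 of each other. Nrp2 was lowest in Dlk1+Sca1+ (7.89, 7.90 and 7.96, against 8.25, 8.47 and 8.73 in CD26+), where Sema3c was highest, without passing the test (0.56 ± 0.19, adjusted p = 0.157).

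Robo1 and Robo2, the Slit receptors of neurons and many other cells, were both lowest in Dlk1+Sca1+ and highest in CD26+. They are neighbours on chromosome 16, Robo1 at chr16:72027518-73047491 and Robo2 at chr16:73891976-75447443, with 844484 bases and 0 protein-coding genes between them in the RefSeq annotation. Epha3 is on the same chromosome. The RefSeq promoter entry for Robo1 lies inside the gene, at chr16:72662899-72663198 on the plus strand, and so belongs to one of its later starts.
Robo1: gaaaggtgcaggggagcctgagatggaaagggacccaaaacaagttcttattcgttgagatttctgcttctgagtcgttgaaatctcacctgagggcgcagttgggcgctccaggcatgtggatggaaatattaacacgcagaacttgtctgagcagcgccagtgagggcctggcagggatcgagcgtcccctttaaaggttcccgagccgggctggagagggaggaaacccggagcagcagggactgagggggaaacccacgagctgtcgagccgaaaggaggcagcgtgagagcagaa
It held none of the motifs given above and was 57% G and C, above 62.6% of mouse promoters.

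Robo1 read 7.72, 7.71 and 7.25 in Dlk1+Sca1+, against 9.59, 9.82 and 9.59 in CD26+, 9.37, 9.09 and 8.73 in Dlk1+Sca1- and 9.23 and 9.35 in Dlk1-Sca1+. The Dlk1+Sca1+ arrays lay at least 1 log2 unit below every other array kept. Robo1 was 4.31-fold higher in CD26+ (2.11 ± 0.18, adjusted p = 2.28e-05), 2.84-fold higher in Dlk1+Sca1- (-1.50 ± 0.18 for Dlk1+Sca1+ minus Dlk1+Sca1-, adjusted p = 0.00139) and 3.31-fold higher in Dlk1-Sca1+ (1.73 ± 0.20, adjusted p = 0.00104) than in Dlk1+Sca1+. It was the other guidance gene that set a population apart (0.0947% of all genes did so as lower in Dlk1+Sca1+), and it did so in every alternative tried, all 12 arrays included (1.44 ± 0.23, adjusted p = 0.0186 against Dlk1-Sca1+), although the array left out read 8.42. Between CD26+ and Dlk1+Sca1- Robo1 differed less (0.60 ± 0.18, adjusted p = 0.158).

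Robo2 read 8.65, 8.59 and 8.52 in Dlk1+Sca1+, 9.42, 9.09 and 9.36 in Dlk1+Sca1-, 9.62 and 9.76 in Dlk1-Sca1+ and 9.89, 9.80 and 9.92 in CD26+. The arrays of each population lay apart from those of every other. Robo2 was 2.43-fold higher in CD26+ than in Dlk1+Sca1+ (1.28 ± 0.12, adjusted p = 6.11e-05) and 2.15-fold higher in Dlk1-Sca1+ (1.10 ± 0.14, adjusted p = 0.00159). With all 12 arrays the second was 0.84 ± 0.19 (adjusted p = 0.0823). Dlk1+Sca1+ was also lower than Dlk1+Sca1- (-0.70 ± 0.12, adjusted p = 0.0130), a call lost without replicate 1 of Dlk1+Sca1- or replicate 3 of Dlk1+Sca1+ (up to 0.0744) and with all 12 arrays (0.115). The smallest called difference was that of CD26+ over Dlk1+Sca1- (0.58 ± 0.12, adjusted p = 0.0411), which held in 1 of the 11 fits that left out 1 array, the one without replicate 3 of Dlk1+Sca1- (up to 0.182 in the others).

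None of the Slits passed the test, and their population means lay within 0.33 to 0.41 of each other. Slit1 read 4.97, 5.22 and 5.06 in Dlk1+Sca1+, below all arrays of CD26+ (5.30, 5.39 and 5.41) and Dlk1+Sca1- (5.34, 5.38 and 5.55). There it overlapped Dlk1-Sca1+ (5.22 and 5.19). Slit3 read 10.04, 10.09 and 10.11 in Dlk1+Sca1+, 10.14, 10.05 and 10.00 in CD26+ and 10.13 and 10.13 in Dlk1-Sca1+, with 10.01, 9.64 and 9.77 in Dlk1+Sca1-. The 95% interval of the Slit3 difference between CD26+ and Dlk1+Sca1+ was -0.26 to 0.22, against 1.72 to 2.49 for Robo1. Slit2 overlapped across CD26+, Dlk1+Sca1- and Dlk1+Sca1+, where its levels ran from 8.69 to 9.49, and read slightly higher in Dlk1-Sca1+ (9.58 and 9.52). Its interval between CD26+ and Dlk1+Sca1+ was -0.57 to 0.41. Robo4, which belongs to endothelium, had population means within 0.31 of each other and lay among the dimmest 40% of genes.

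**Figure D4:**
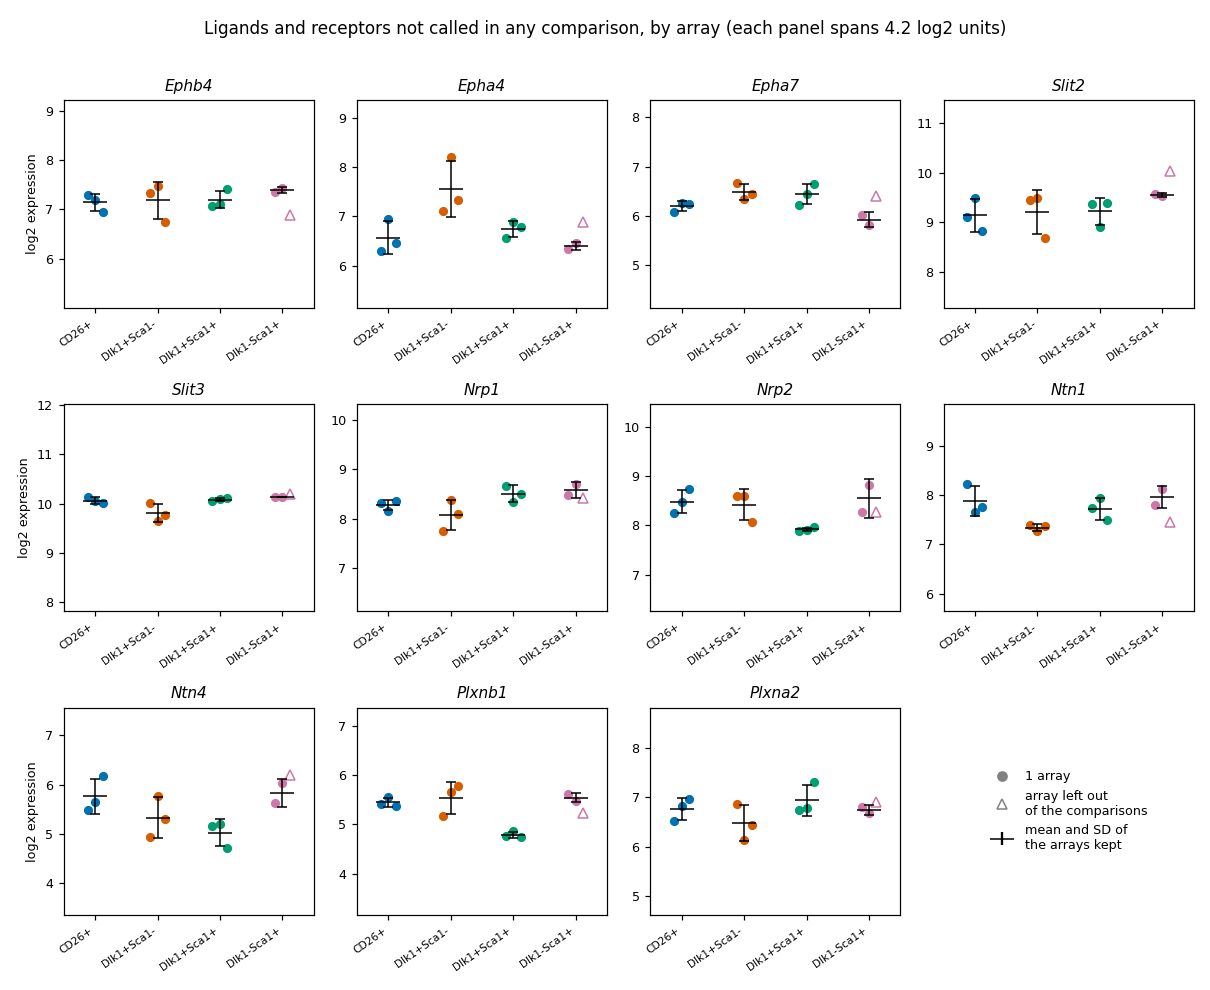
Panels show 11 ligands and receptors of the same families, none of them called, drawn as log2 levels per array with the mean and SD of the arrays kept and the array left out as an open triangle. The scale spans the same log2 range as in the plot of called genes, and the population means of Slit2 lie within 0.41 of each other, those of Nrp1 within 0.51 and those of Ephb4 within 0.24.

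Unc5b, a repulsive netrin receptor, was the only gene called among the listed netrins and netrin receptors, and it was highest in reticular cells. Unc5b (chr10:60762594-60831581) read 6.89, 7.08 and 6.59 in Dlk1+Sca1-, 6.37, 6.42 and 6.41 in CD26+, 5.80 and 6.03 in Dlk1-Sca1+ and 5.41, 5.41 and 5.57 in Dlk1+Sca1+. The populations did not overlap and their order differed from that of the other 10 called genes. In Dlk1+Sca1+ cells Unc5b was 2.62-fold lower than in reticular cells (-1.39 ± 0.17, adjusted p = 0.00140) and 1.91-fold lower than in CD26+ (CD26+ minus Dlk1+Sca1+ 0.94 ± 0.17, adjusted p = 0.00613), and both calls held in every alternative. Dlk1-Sca1+ was 1.92-fold lower than Dlk1+Sca1- (-0.94 ± 0.19, adjusted p = 0.0442, and 0.0210 with all 12 arrays), which held in 1 of the 11 fits that left out 1 array, the one without replicate 3 of Dlk1+Sca1- (up to 0.216 in the others). The array left out read 5.97, within its labelled group.

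The netrins and the other receptors were not called. Ntn1 read 8.22, 7.66 and 7.75 in CD26+ and 7.39, 7.27 and 7.37 in Dlk1+Sca1- (0.54 ± 0.18, adjusted p = 0.223). Ntn4, a netrin of basement membranes, read 5.49, 5.65 and 6.17 in CD26+ and 5.17, 5.20 and 4.72 in Dlk1+Sca1+ (0.74 ± 0.24, adjusted p = 0.136). Unc5a, Unc5c, Unc5d and Dcc had population means within 0.12 to 0.59 of each other, and Unc5c and Dcc were among the dimmest 40% of genes.

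Papillary and Dlk1-Sca1+ cells differed in 0 of the 59 guidance genes by limma on 11 or 12 arrays. The count was also 0 without the mean trend and robust variance. Of all genes 0.0857% were called on 11 arrays and 0.131% on 12, so 0 of 59 lies near the share of all genes. Before adjustment, 7 guidance genes (11.9%, against 5.52% of all genes) had a limma p under 0.05. These were Efnb2, Epha1, Ephb1, Sema3f, Sema6d, Plxnd1 and Unc5b. Over all genes, both Dlk1-Sca1+ arrays kept correlated best with CD26+, but the mean for their own group included the array left out. For Dpp4, the gene of CD26 and the marker of the papillary gate, both populations read high (mean 10.30 ± 0.27, SD, n = 3, in CD26+ and 9.97 and 10.13 in Dlk1-Sca1+, with the array left out at 9.37). Dpp4 read 9.17, 9.40 and 9.10 in Dlk1+Sca1+ and 7.92, 8.30 and 9.20 in Dlk1+Sca1-. For Dlk1 both read low (8.49, 8.69 and 8.51 and 8.09 and 8.32, against 9.78, 10.11 and 9.90 in Dlk1+Sca1-). Ly6a, the gene of Sca1, was not among the genes measured, so the Sca1 gate was not checked here. The 95% interval of the difference lay within 1 log2 unit of 0 for 53 of the 59 genes, so a 2-fold difference was outside the interval there. Among the 11 genes called in other comparisons, the intervals of CD26+ minus Dlk1-Sca1+ left out 0 for Efnb2 (0.02 to 1.31), Sema6d (0.34 to 1.15), Plxnd1 (-1.04 to -0.18) and Unc5b (0.08 to 0.89), before adjustment. They included 0 for Efna5 (-0.17 to 0.91), Epha3 (-1.03 to 0.02), Sema3c (-0.58 to 0.31), Plxna4 (-0.34 to 0.72), Plxnc1 (-0.49 to 0.71), Robo1 (-0.05 to 0.81) and Robo2 (-0.12 to 0.47). With all 12 arrays the differences were 0.85 ± 0.35 for Efna5, 1.13 ± 0.37 for Efnb2, -1.03 ± 0.36 for Epha3 and 0.67 ± 0.23 for Robo1.

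**Figure D5:**
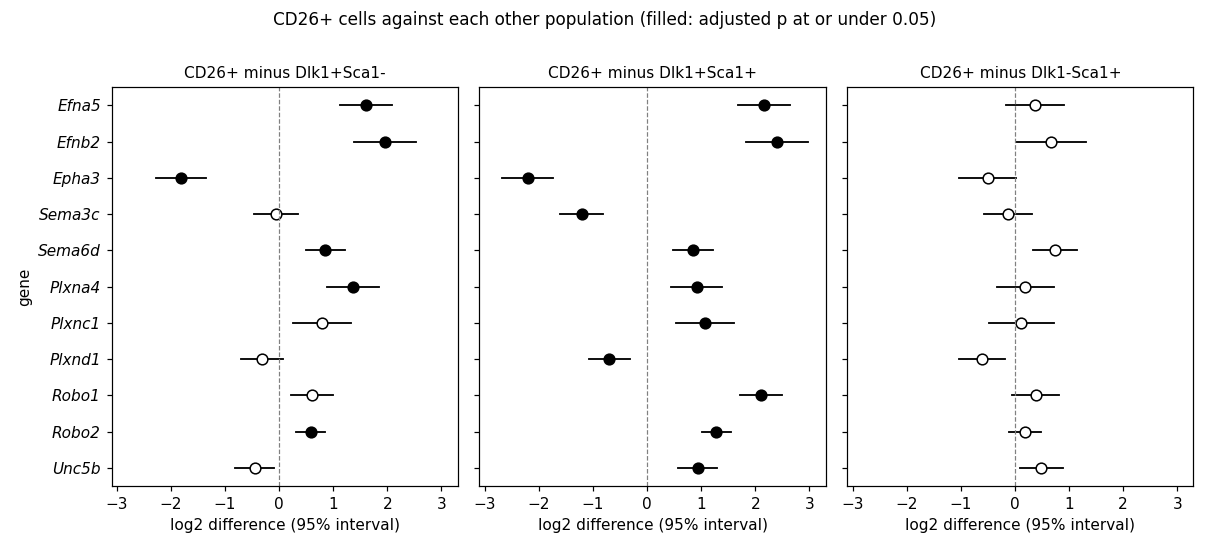
Points give the log2 difference of CD26+ minus each other population for the 11 called genes, lines its 95% interval, and filled points an adjusted p at or under 0.05. The points are filled for 6 genes against Dlk1+Sca1- and for all 11 against Dlk1+Sca1+, and against Dlk1-Sca1+ all are open and within 1 log2 unit of 0.

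The 48 guidance genes never called had population means that spanned 0.12 to 1.15 log2 units (median 0.42), and for 28 of them the span was under 0.5. Of the 59, 7 lay among the dimmest 40% of genes, where array background can compress differences, and none of these was called.

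Genes that act below or beside the guidance receptors were described from 2 further lists. Of 38 intracellular effectors measured (of 41 listed), CD26+ cells held more of 4 and less of 0 than Dlk1+Sca1+ (2.05% of all genes were called higher and 1.68% lower), and more of 1 and less of 0 than Dlk1+Sca1- (0.654% and 0.442%). The median difference of the list was 0.05 and 0.09, against -0.01 over all genes. The effectors were led by Mical2, an actin-oxidising enzyme of the family through which plexins act. Mical2 read 7.95, 7.91 and 8.14 in CD26+, 7.63 and 7.84 in Dlk1-Sca1+, 6.92, 6.93 and 6.85 in Dlk1+Sca1- and 6.19, 6.35 and 5.97 in Dlk1+Sca1+, and was 3.56-fold higher in CD26+ than in Dlk1+Sca1+ (1.83 ± 0.16, adjusted p = 2.66e-05). Like Robo2, it separated all 4 populations without overlap. Vav3, an exchange factor downstream of Eph receptors, was 2.46-fold higher (1.30 ± 0.18, adjusted p = 0.00109), Chn1, whose product chimaerin links EphA4 to Rac, 2.36-fold (1.24 ± 0.19, adjusted p = 0.00234), and the kinase gene Pak3 1.82-fold (0.86 ± 0.20, adjusted p = 0.0322).

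Of 32 other guidance ligands, receptors and adhesion genes measured (of 38 listed), 7 were higher and 1 lower in CD26+ than in Dlk1+Sca1+ (2.05% and 1.68% of all genes), and 3 were higher and 1 lower than in Dlk1+Sca1- (0.654% and 0.442%). The median differences were 0.20 and 0.11. Cntn4, an adhesion molecule of sensory axons, read 7.39, 6.92 and 7.47 in CD26+ and 6.68 and 6.81 in Dlk1-Sca1+, against 5.28, 4.83 and 5.70 in Dlk1+Sca1- and 4.89, 4.70 and 4.75 in Dlk1+Sca1+, the order of Efna5. It was 5.58-fold higher in CD26+ than in Dlk1+Sca1+ (2.48 ± 0.22, adjusted p = 3.26e-05). Dscam, a netrin receptor and adhesion molecule, was 5.14-fold higher (2.36 ± 0.23, adjusted p = 7.00e-05) and Adgrl2, a latrophilin, 2.04-fold higher (1.03 ± 0.18, adjusted p = 0.00473). Slitrk6, a synaptic adhesion gene, was low in Dlk1+Sca1+ like Robo1: it read 6.95, 6.32 and 5.78 there, against 7.85, 7.85 and 7.81 in Dlk1+Sca1- (-1.49 ± 0.25, adjusted p = 0.0106) and 7.87, 7.68 and 7.47 in CD26+ (1.32 ± 0.25, adjusted p = 0.00874). The 1 gene lower in CD26+ was Flrt2, an Unc5 ligand, which was chosen for mention after its values were seen (-0.99 ± 0.23 against Dlk1+Sca1+, adjusted p = 0.0269, and 0.0682 with all 12 arrays). Between CD26+ and Dlk1-Sca1+ 0 genes of either list were called by limma on 11 arrays, where 0.0857% of all genes were. At an unadjusted p under 0.05 were 3 of the effectors and 5 of the other guidance genes (5.52% of all genes). With all 12 arrays 1 was called, Flrt2, lower in CD26+ (-1.65 ± 0.27, adjusted p = 0.0278, against -1.36 ± 0.25 and 0.0864 on 11 arrays).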

How the data were processed

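The deposited values are log2 expression values per probe set of the authors' 12 Affymetrix arrays, in 1 table. Their summarisation and normalisation are not given in the sources used here. The submitters' processing notes name the build mm10. Arrays were not normalised further.

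Of 41345 probe sets, 23521 had 1 symbol in the platform annotation, 1820 several and 16004 none. For each of 22180 genes the single-symbol probe set with the highest mean over 12 arrays was used. Gene positions and promoters are from RefSeq GRCm38.p6, the build mm10, and matched 59 guidance genes. No count depth applies, and the number of arrays limits the precision.

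One Dlk1-Sca1+ array was left out by a rule drawn from the study's description: within the group it read highest for Dlk1, and its centred values correlated better with Dlk1+Sca1+ arrays. A mean per population was fitted with limma 3.58.1 (R 4.3.3, statmod 1.5.0; eBayes with trend and robust, two-sided, 7 residual degrees of freedom), and p-values were adjusted by Benjamini-Hochberg over all genes within each of 6 comparisons. Errors after ± are SE for differences. Genes named in full were Efnb2 and every member called in any comparison; further lists were given by counts, median and up to 4 called genes with the smallest adjusted p. Members and lists were chosen with earlier results of these data known. Replicates are biological by their labels, which do not say how mice were pooled. On simulated data for CD26+ against Dlk1+Sca1-, 97 of 100 genes changed by 2 log2 units and 63 of 100 changed by 1 were recovered among 22180. The counts were 99 and 65 for CD26+ against Dlk1+Sca1+ and 95 and 51 for CD26+ against Dlk1-Sca1+. In the simulation genes varied independently, and only the planted genes differed, in CD26+ alone. Recovery after adjustment depends on how many genes differ, so these counts do not give the power of the real comparisons. Alternatives were all 12 arrays, a replicate block, other variance models, scalings, probe set and adjustment choices, a filter on dim genes, fits of only the groups compared, and leaving out each array.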

Additional observations from a re-analysis of the deposited data

How the results depend on the processing

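Across 20 alternatives none of the 30 calls changed direction, 12 were kept in every one and 14 in all 11 fits that left out 1 array. With all 12 arrays 17 calls were kept, and the number of guidance genes called was 3 for CD26+ against Dlk1+Sca1-, 1 for Dlk1-Sca1+ against Dlk1+Sca1-, 1 for Dlk1-Sca1+ against Dlk1+Sca1+, and 1 that set a population apart. Fits of only the groups compared called 2 for Dlk1+Sca1+ against Dlk1+Sca1- and 0 for Dlk1-Sca1+ against Dlk1+Sca1-. Leaving out 1 array gave 3 to 6 for CD26+ against Dlk1+Sca1-, 7 to 13 for CD26+ against Dlk1+Sca1+, 0 to 2 for Dlk1-Sca1+ against Dlk1+Sca1-, 2 to 6 for Dlk1-Sca1+ against Dlk1+Sca1+, 3 to 5 for Dlk1+Sca1+ against Dlk1+Sca1-, 1 to 2 that set a population apart, 8 to 10 for any difference and 0 for CD26+ against Dlk1-Sca1+. The other settings kept 21 (only the groups compared) to 30 calls, and those they ended were Sema6d, Robo2, Plxna4, Plxnc1 and Plxnd1 of CD26+, Sema3c and Robo2 of Dlk1+Sca1+, and Efna5, Epha3 and Unc5b of Dlk1-Sca1+ against Dlk1+Sca1-. In fits that leave 1 Dlk1-Sca1+ array, that array is assumed to vary like the other groups. The causes were not tested.

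Samples with the same replicate number deviated together only weakly (r of -0.05 to 0.15 over 15 pairs, 2 of them over 0.1). Their mean r was 0.05, against -0.02 for samples of other numbers. The numbers were not taken to pair them. The replicate block kept 26 of the 30 calls, and its counts were 6, 11, 0, 4, 3 and 6 in the comparisons CD26+ against Dlk1+Sca1-, Dlk1+Sca1+ and Dlk1-Sca1+, Dlk1+Sca1+ against Dlk1+Sca1-, and Dlk1-Sca1+ against Dlk1+Sca1- and Dlk1+Sca1+, 10 for any difference and 2 that set a population apart.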

Other observations

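The Dlk1-Sca1+ array left out was closer to the Dlk1+Sca1+ mean than to that of the other Dlk1-Sca1+ arrays for 8 of the 11 called guidance genes and 25 of all 59. Its likeness to Dlk1+Sca1+ was part of why it was left out, so neither count is independent evidence. It lay outside the range of all other arrays for 11 of the 59, among them Slit2, where it read 10.05 against 8.69 to 9.58 elsewhere, and Plxnd1, where it read 8.29 against 6.51 to 7.58. For Robo1 (8.42) and Robo2 (8.89) it lay between the Dlk1+Sca1+ arrays and every array of the other populations.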
